A study of Rattus norvegicus with 2 samples.

Results

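Cytoplasmic actins and tubulins, the structural subunits of microfilaments and microtubules and a source of common loading and normalisation controls, were followed in AR42J cells, a rat line of exocrine pancreatic tumour origin. One group received taurolithocholic acid 3-sulfate (TLC-S), a bile acid conjugate applied to acinar cells in studies of biliary pancreatitis, at 200 µM for 20 min, and the other was left untreated. Both groups were cells of the same line grown in the same medium, with 1 one-colour array for each. The 10 genes were named from the actin and tubulin families but selected on the RMA intensities of both arrays, which were known when the list was drawn up, and every target (the set of probes that reads 1 RefSeq record) of each gene was used. They comprised the actins Actb and Actg1, the alpha tubulins Tuba1a, Tuba1b, Tuba1c and Tuba4a, the beta tubulins Tubb2a, Tubb2b and Tubb5, and the gamma tubulin Tubg1. Together they had 11 of the 26419 targets and were 10 of the 15577 named genes.

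Alpha and beta tubulin form the dimer that polymerises into microtubules, and gamma tubulin sits in the ring complex from which microtubules are nucleated. Beta- and gamma-actin form the filaments of the cell cortex, which in exocrine acinar cells lies beneath the apical membrane where secretory granules fuse. Cells adjust tubulin mRNA to the pool of free tubulin dimer, and actin genes are known targets of the transcription factor SRF, whose MRTF coactivators bind monomeric actin.

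With 1 array in each group there was no replicate check, so a ratio describes the pair of arrays only, and no p-value is given. Values are RMA intensities on a linear scale, and an intensity of 100 on both arrays was the limit for a measured ratio. The background, read from 8710 random-sequence probes, was 40.5 in TLC-S and 44.7 in control, and 42.7% of targets reached 100 on both arrays. The label of the cells was set against marker genes. Of 18 measured acinar markers, 3 reached 100 on both arrays (Prss1, Prss2 and Bhlha15), and the summed intensity of the list was 3351 in TLC-S and 15014 in control. The digestive proteases Prss1 (603 in TLC-S and 5337 in control, 8.85-fold lower) and Prss2 (856 in TLC-S and 7536 in control, 8.81-fold lower) carried that difference, while the transcription factor Bhlha15 had 1056 in TLC-S and 1227 in control. The digestive enzymes Amy2a3, Cpa1 and Pnlip lay between 40.2 and 64.8 in TLC-S and between 43.1 and 64.0 in control, near the random probes. Of 13 pan-leukocyte markers 12 reached 100 on both arrays (summed intensity 27172.9 in TLC-S and 28551.5 in control), as did 2 of 8 epithelial markers (7245 in TLC-S and 5893 in control) and 2 of 8 neuronal markers (748 in TLC-S and 662 in control), whereas 0 of 7 fibroblast and muscle markers did (416 in TLC-S and 465 in control). The cadherin Cdh1 (6755 in TLC-S and 5018 in control) carried the epithelial sum, while Cldn4 was 2.34-fold lower and the median log2 ratio of the list was -0.54. The largest single value in the neuronal sum was the tubulin Tubb3 (379 in TLC-S and 210 in control), and the median of that list was -0.19. The median intensity of the pan-leukocyte list was 1186 in TLC-S and 992 in control, and that of the acinar list 52.8 and 62.4. These markers thus do not by themselves bear out the exocrine pancreatic label. The part of these markers in the results below was not tested.

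All 10 genes had a higher intensity in TLC-S than in control, by 1.30-fold to 3.67-fold. The median log2 ratio was 0.84, beside 0.15 over all named genes and 0.25 over named genes at 100 or more on both arrays. At least 2-fold higher were 4 of the 10, Tubg1, Tubb5, Tuba1a and Tuba1c, and 0 were 2-fold lower. Of all named genes at 100 or more on both arrays, 10.0% were 2-fold higher and 4.37% 2-fold lower, and of all targets 7.89% and 6.80%. The genes were chosen with these intensities known, so nothing is read from that comparison. In a total RNA sample, a different number of cells of one kind and a different amount of transcript per cell cannot be told apart.

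**Figure D1:**
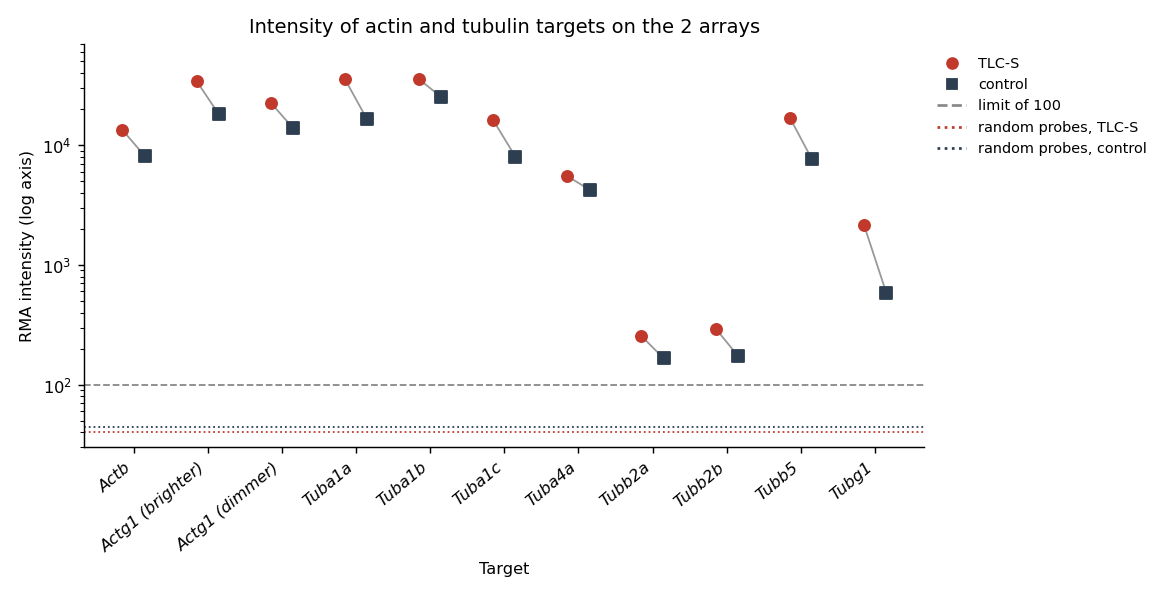
RMA intensity (log axis) of each of the 11 actin and tubulin targets in TLC-S (red circles) and control (dark squares), with 1 array for each. Every target is higher in TLC-S, and all are above the limit of 100 and the random probes (dotted lines).

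Actb encodes beta-actin, the filament subunit enriched at the cortex of motile cells. Its intensity was 13399.7 in TLC-S and 8139 in control, a ratio of 1.65-fold (log2 0.72). Actg1, the gamma cytoplasmic actin, was read by 2 targets of predicted RefSeq records. The brighter gave 34326 in TLC-S and 18127 in control (1.89-fold), and the dimmer 22642 in TLC-S and 13917 in control (1.63-fold). Both Actg1 targets were thus higher in TLC-S, and their log2 ratios of 0.92 and 0.70 differed by 0.22. Neither cytoplasmic actin reached 2-fold.

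Actin-like targets of provisional gene models gave a less even picture, and were looked up after the values of the named genes had been seen. LOC680688, annotated as actin-like, had 18412 in TLC-S and 10913.6 in control (log2 ratio 0.75). LOC681152, annotated as similar to beta-actin, had 542 in TLC-S and 279 in control (0.96). LOC295810, similar to gamma-actin, had 158 and 117 (0.44), while RGD1564727, similar to beta-actin, was lower in TLC-S, at 109 against 197 in control (-0.85). The first 3 leaned the same way as Actb and Actg1, and the fourth the other way. Actin genes and their processed copies are close in sequence, so a target can read more than 1 of them, and how far it does was not tested.

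The muscle actins, which mark smooth, skeletal and cardiac muscle and myofibroblasts, were near or under the limit. Acta1 had 99.0 in TLC-S and 99.6 in control, Actc1 43.8 in TLC-S and 52.5 in control, and Actg2 61.0 in TLC-S and 49.5 in control. Acta2, the smooth muscle isoform, had 47.1 in TLC-S and 118 in control, which leaves a bound of at least 1.18-fold lower. Of the 4, then, 0 reached 100 on both arrays.

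Among alpha tubulins, Tuba1a, the isotype prominent in developing neurons, had 35654 in TLC-S and 16399 in control, 2.17-fold higher (log2 1.12). Tuba1c had 16187 in TLC-S and 8003 in control, 2.02-fold higher (1.02). Tuba1b, a widely expressed isotype, had 35536 in TLC-S and 25218 in control, 1.41-fold higher (0.49). Tuba4a, whose protein ends without the encoded C-terminal tyrosine of other alpha tubulins, had 5517 in TLC-S and 4241 in control, 1.30-fold higher (0.38). The alpha tubulins thus split into a pair near 2-fold and a pair well under it, although Tuba1a, Tuba1b and Tuba1c are neighbours on chromosome 7. The log2 ratio of Tuba1a was 0.63 above that of Tuba1b, and that of Tuba1c 0.52 above it.

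The same transcripts may be read by several alpha tubulin targets. Gene models annotated as similar to alpha tubulins, again looked up after the fact, were also higher in TLC-S, with a narrow range. RGD1560000 had 20864.9 in TLC-S and 13678 in control (0.61), LOC691781 had 20774 in TLC-S and 12044 in control (0.79), and RGD1565579 had 6545 in TLC-S and 3878 in control (0.76). These 3 lay between Tuba1b and Tuba1c.

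Tubb5, the beta tubulin of most dividing cells, had 17006 in TLC-S and 7593 in control, 2.24-fold higher (log2 1.16). The neighbouring genes Tubb2a and Tubb2b, prominent in brain, were much closer to background. Tubb2a had 255 in TLC-S and 165 in control (1.54-fold, 0.62), which is 6.28 and 3.70 times the random probes. Tubb2b had 294 in TLC-S and 174 in control (1.69-fold, 0.76), 7.26 and 3.89 times the random probes. Both passed the limit on each array, and neither reached 2-fold. An offset of 50 added before taking logs, which damps ratios near background, gave 0.50 for Tubb2a and 0.62 for Tubb2b, but 1.16 still for Tubb5.

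Tubg1, the gamma tubulin that nucleates microtubules at centrosomes, had 2161 in TLC-S and 588 in control, 3.67-fold higher (log2 1.88). Its ratio was above those of the other 9 genes. Among 11292 targets at the limit or above on both arrays, 0.894% had a ratio above that of Tubg1, against 6.22% for Tubb5, 7.04% for Tuba1a, 20.5% for Actb and 40.8% for Tuba4a. The log2 ratio of Tubg1 was 1.16 above that of Actb.

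**Figure D2:**
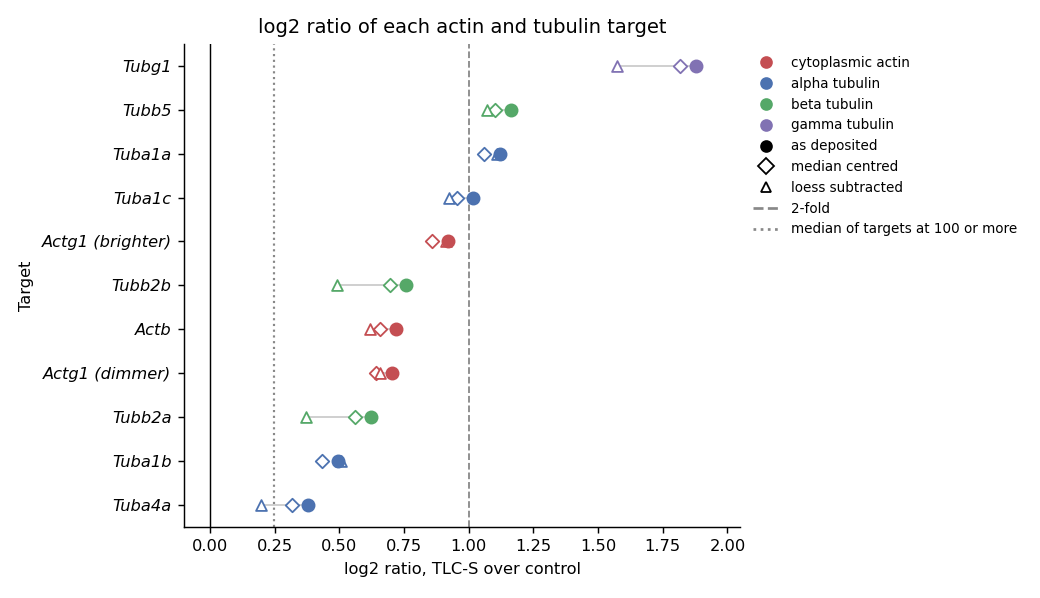
log2 ratio of TLC-S over control for each actin and tubulin target, as deposited (filled circles), after subtracting the median of all targets (diamonds) and after subtracting a loess curve on signal (triangles). The targets run from 0.38 for Tuba4a to 1.88 for Tubg1, all above 0 under each scaling, and Tuba1c passes the 2-fold line only as deposited.

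The authors' deposited table of 2-fold higher targets listed Tubg1 at 3.67, Tubb5 at 2.24, Tuba1a at 2.17 and Tuba1c at 2.02. The authors' deposited table of lower targets held 0 of the 11. Tuba1c stood just past the threshold: its log2 ratio was 0.95 after median centring and 0.92 (1.90-fold) after loess subtraction, which takes away the average ratio at each signal. After loess, Tubg1 was 2.98-fold, Tuba1a 2.16-fold and Tubb5 2.10-fold higher, so that 3 of 10 stayed past 2-fold, with 4.59% of named genes at 100 or more on both arrays higher and 6.91% lower by that rule. Actb was then 1.53-fold and Tuba4a 1.15-fold higher.

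Ratios varied less among bright targets, where most of these genes lay. Over 1244 targets whose intensity reached 4000 on each array, the median log2 ratio was 0.05 and the SD 0.48, and 2.73% were 2-fold higher and 0.965% 2-fold lower. The SD between targets of one gene was 0.14 in that set (29 genes) and 0.42 over 580 genes with several targets at 100 or more. It is a spread of repeat readings within these 2 arrays, not of cultures. The log2 ratios of the 10 genes had an SD of 0.43. Tuba1a and Tuba1b, both in the bright set, differed by more than that set's SD between targets of one gene, and the difference of 0.22 between the Actg1 targets was also above it. A difference between 2 readings varies more than 1 reading, so the Actg1 gap is not read as beyond repeat spread.

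**Figure D3:**
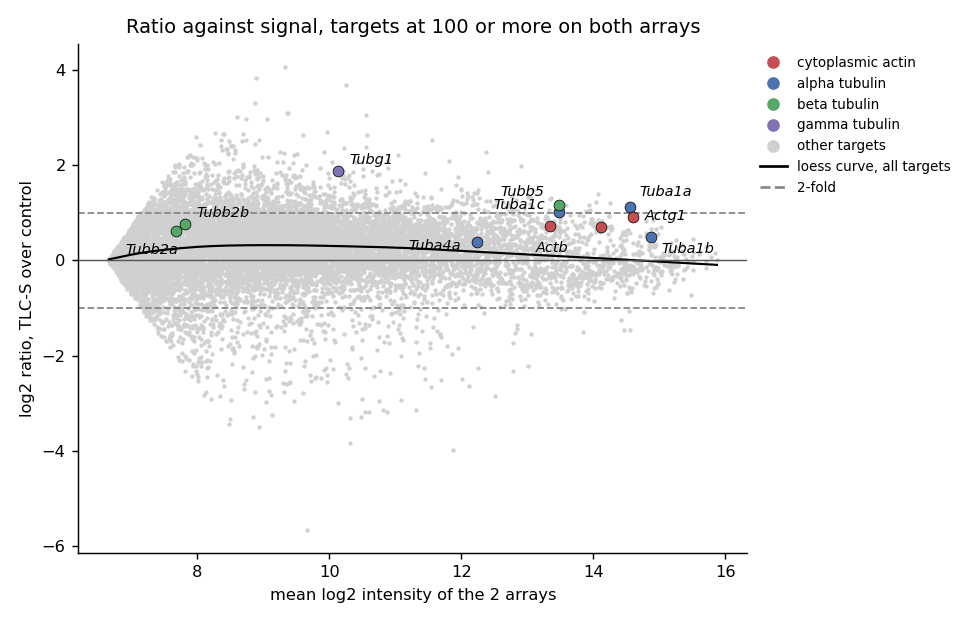
log2 ratio of TLC-S over control against the mean log2 intensity of the 2 arrays for 11292 targets with a measured ratio (grey), with the actin and tubulin targets coloured and a loess curve through all 26419 targets. The 11 targets lie above the curve at every signal, with Tubb2a and Tubb2b at the dim end and Tuba1b at the bright end.

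The promoters of the gene with the highest ratio in each family are shown, 1 for each of the 4 families, since all 4 transcripts were higher in TLC-S. They are the 250 bases before the annotated start, from RefSeq on build GRCr8, which is not known to be the build of the array. The table used held 9 of the 10 genes and no entry for Actb. Capitals mark matches on either strand to 4 motifs: the CArG box bound by SRF, the CCAAT box, GGGCGG and the TATAAA box. Matches of GGGCGG to each other may overlap.
Tubg1, chr10:86552893-86553142, plus strand: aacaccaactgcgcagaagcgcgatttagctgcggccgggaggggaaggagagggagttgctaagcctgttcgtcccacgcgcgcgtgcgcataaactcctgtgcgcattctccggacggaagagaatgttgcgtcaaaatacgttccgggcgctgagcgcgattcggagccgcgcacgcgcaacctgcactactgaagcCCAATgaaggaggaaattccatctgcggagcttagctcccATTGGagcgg
Tubb5, chr20:2917327-2917576, plus strand: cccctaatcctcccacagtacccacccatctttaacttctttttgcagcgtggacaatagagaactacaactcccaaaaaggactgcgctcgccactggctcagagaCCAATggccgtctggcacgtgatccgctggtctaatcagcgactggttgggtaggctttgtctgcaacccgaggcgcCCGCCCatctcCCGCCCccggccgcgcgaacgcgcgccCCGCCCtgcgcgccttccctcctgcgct
Tuba1a, chr7:131995820-131996069, minus strand: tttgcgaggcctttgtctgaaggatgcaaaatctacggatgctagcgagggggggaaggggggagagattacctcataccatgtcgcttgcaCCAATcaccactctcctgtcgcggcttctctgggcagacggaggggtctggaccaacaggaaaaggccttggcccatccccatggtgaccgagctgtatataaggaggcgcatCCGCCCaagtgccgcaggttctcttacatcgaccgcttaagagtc
Actg1, chr10:106120952-106121201, minus strand: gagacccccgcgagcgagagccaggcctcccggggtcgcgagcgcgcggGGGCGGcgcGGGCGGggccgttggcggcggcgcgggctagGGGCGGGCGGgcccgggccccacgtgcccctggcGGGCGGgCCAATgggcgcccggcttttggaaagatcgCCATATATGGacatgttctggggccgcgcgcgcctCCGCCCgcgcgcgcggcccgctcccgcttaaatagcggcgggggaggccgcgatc

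The Actg1 window held a CArG box at bases -90 to -81 from the start, a CCAAT at -120 to -116 and 6 matches of GGGCGG. Of the 33469 rat promoter windows of this length in the table, 1.497% held a CArG box, and of the 9 windows of these genes Actg1 alone did. CCAAT was in 7 of the 9 windows and in 34.0% of all windows, GGGCGG in 7 of 9 and in 30.5% of all, and TATAAA in 1 of 9 (Tubb2a, at -31 to -26) and in 12.9% of all. Tubg1 had 2 CCAAT matches, at -50 to -46 and, on the other strand, at -10 to -6, and Tubb5 1 at -143 to -139. The G and C content of the 9 windows ran from 56.8% to 80.4% with a median of 64.4%, beside a median of 51.2% over all windows. These matches describe letters in a window and name no bound factor.

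Over these 2 arrays, the named genes nearest to Actb in both log2 intensities were Cherp (13270.0 in TLC-S and 8068 in control), Cnbp (13441.5 in TLC-S and 8036 in control) and Cct2 (14088 in TLC-S and 8213 in control), at distances of 0.019, 0.019 and 0.073. Nearest to Tubb5 were Tuba1c (0.10) and the RNA-binding protein Pcbp1 (18547 in TLC-S and 8211 in control, 0.17). A likeness over 2 arrays is only a shared pair of values. Cct2 is a subunit of the chaperonin that folds actin and tubulin.

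Other tubulins were mostly higher as well. Of 9 measured, 8 reached 100 on both arrays, of which 4 were 2-fold higher and 0 lower, and the median log2 ratio of the 9 was 0.85. Over all named genes at that limit, 10.0% were 2-fold higher and 4.37% lower, and after loess 4.59% and 6.91%. Tubb6, a beta tubulin of many non-neuronal tissues, had 982 in TLC-S and 173 in control (5.68-fold higher, log2 2.51), a ratio above that of each of the 10 genes. Tubg2, the second gamma tubulin, had 419 in TLC-S and 161 in control (2.61-fold). Tubb4b and Tubb4a were the other 2, with log2 ratios of 1.29 and 1.06, and after loess 3 of the 4 were past 2-fold, without Tubb4a (0.74). The neuronal Tubb3 had 379 in TLC-S and 210 in control (0.85), while Tuba8 had 357 in TLC-S and 369 in control (-0.05).

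Of the machinery that makes and uses tubulin, the chaperonin and prefoldin list had a median of 0.63 over 11 genes, with 0 past 2-fold in either direction. Its highest were the chaperonin subunits Cct3, at 26670.1 in TLC-S and 14029 in control (1.90-fold), and Cct8, at 9268 in TLC-S and 5224 in control (1.77-fold), and its lowest was the prefoldin subunit Pfdn5 (-0.75). Tubulin-folding cofactors and genes of tubulin mRNA autoregulation had a median of 0.21 over 10 genes, with 0 past 2-fold. After loess subtraction that median turned to -0.0891. In this list Ttc5, the factor that recognises nascent tubulin and starts decay of its mRNA, had 527 in TLC-S and 266 in control (1.99-fold), and Cnot11, a subunit of the deadenylase it recruits, 1334 in TLC-S and 838 in control (1.59-fold). Scaper, the adaptor between them, was slightly lower, at 203 in TLC-S and 221 in control (-0.12). The partners of Tubg1 in the gamma-tubulin ring complex had a median of 0.55 over 7 genes, 1 of them 2-fold higher: Cdk5rap2, which anchors the complex, at 294 in TLC-S and 137 in control (2.15-fold). Mzt1, a small subunit, followed at 553 in TLC-S and 280 in control (1.97-fold), and Tubgcp2, Tubgcp3 and Tubgcp5, which bind gamma tubulin or scaffold the ring, had log2 ratios of 0.92, 0.55 and 0.30, while Tubgcp6 had 1126 in TLC-S and 1202 in control (-0.10). After loess 0 of the 7 were past 2-fold, with Cdk5rap2 at 0.86 and the median at 0.23.

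Microtubule-associated proteins ran both ways, with a median of 0.27 over 18 measured genes and 0.60 over the 14 at 100 or more on both arrays. Over all named genes at that limit, 10.0% were 2-fold higher and 4.37% lower, and after loess 4.59% and 6.91%. Of these 14, 2 were 2-fold higher and 2 lower. Those higher were Ckap5 and the end-binding Mapre2 (2.15-fold), and those lower Map1b and Map1a (2.09-fold). Ckap5, a microtubule polymerase, had 1619.6 in TLC-S and 714 in control (2.27-fold higher). Map1b, a stabiliser of axonal microtubules, had 310 in TLC-S and 1087 in control (3.51-fold lower). After loess 0 of the 14 were 2-fold higher and 3 lower, Ckap5 standing at 0.88, Mapre2 at 0.79 and the stathmin Stmn3 at -1.22 beside Map1b and Map1a. The enzymes that modify tubulin had a median of 1.08 over 9 measured genes and 0.80 over the 8 at the limit, of which 4 were 2-fold higher and 0 lower. The deacetylase Hdac6 had 441 in TLC-S and 149 in control (2.97-fold) and Ttll12, of the tubulin tyrosine ligase family, 1815 in TLC-S and 737 in control (2.46-fold). The polyglutamylase subunit Ttll1 (2.38-fold) and the deglutamylase Agtpbp1 (2.11-fold) were the other 2. After loess 2 of the 8 were higher, Hdac6 and Ttll1, and 1 was lower, Svbp (-1.10), the partner of the vasohibin tubulin carboxypeptidases. The list median after loess was 0.77 over the 9 and 0.48 over the 8.

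For the actin lists too, the shares over all named genes at the limit were 10.0% higher and 4.37% lower, and after loess 4.59% and 6.91%. Counts near these shares are not read as results of a list. Monomer-binding and filament-turnover genes had a median of 0.39 over 20 measured genes, and of the 15 at the limit 1 was 2-fold higher and 0 lower. That was the coronin Coro1c, at 1056 in TLC-S and 510 in control (2.07-fold), and Twf2, a monomer-binding twinfilin, stood at 356 in TLC-S and 189 in control (1.88-fold). After loess 0 of the 15 were higher and 1 was lower, with Coro1c at 0.73 and the capping protein Capg at -1.17. Nucleation genes had a median of 0.35 over 17, with 2 of 15 at the limit 2-fold higher: the formins Diaph3, at 455 in TLC-S and 157 in control (2.90-fold), and Diaph1, at 467 in TLC-S and 232 in control (2.01-fold). After loess Diaph3 alone of the 15 was past 2-fold, and Diaph1 stood at 0.70. Wasf1, under the limit in control, had 215 in TLC-S and 78.1 in control, a bound of at least 2.15-fold higher. Crosslinking and contractility genes had a median of 0.39 over 19, with 2 of 17 higher: the filamin Flna, at 2707 in TLC-S and 785 in control (3.45-fold), and the adhesion protein vinculin, Vcl, at 346 in TLC-S and 115 in control (3.02-fold). After loess these 2 stayed past 2-fold, and the median of the list was 0.11. Actn1, under the limit in control, had 348 in TLC-S and 71.7 in control, a bound of at least 3.48-fold higher. Vcl is also in the list of SRF and MRTF factors and targets, where the median was 0.22 over 13 measured genes and 0.47 over the 6 at the limit. After loess it was 0.0071 over the 13 and 0.28 over the 6. Of those 6, Vcl alone was 2-fold higher and 0 were lower, with Srf itself at 1147 in TLC-S and 615 in control (1.87-fold). Among the genes under the limit in TLC-S, Fhl2 had 40.3 in TLC-S and 179.8 in control, a bound of at least 1.80-fold lower, and Ccn1 62.7 in TLC-S and 117 in control, at least 1.17-fold lower.

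**Figure D4:**
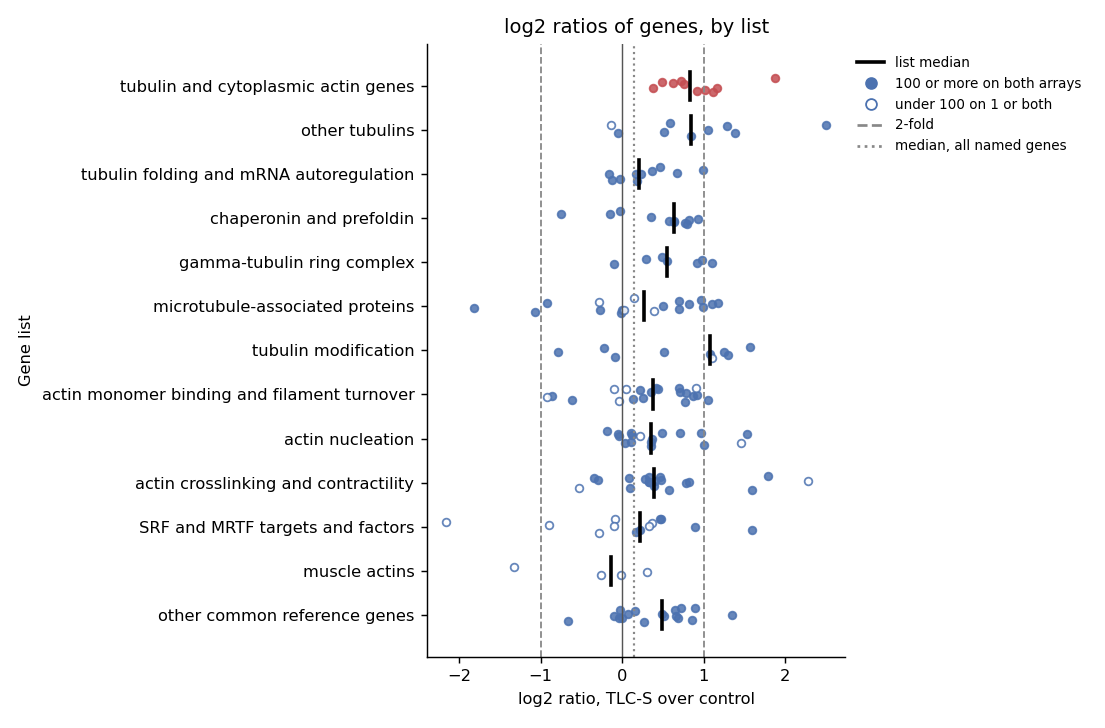
log2 ratios of TLC-S over control for the 10 actin and tubulin genes (red) and for genes of the other lists (blue), 1 point per measured gene, filled where both arrays reached 100. Black bars are list medians, from -0.14 for the muscle actins to 1.08 for tubulin modification, and the dotted line is the median of all named genes, 0.15.

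The actins and tubulins were also set beside 17 other common reference genes, all at 100 or more on both arrays. Their median log2 ratio was 0.49, with a range from -0.67 for B2m to 1.34 for Ldha. Ldha had 13362 in TLC-S and 5263 in control (2.54-fold) and was the 1 of them past 2-fold higher, with 0 past 2-fold lower. The glycolytic enzyme Pgk1 had 13705.5 in TLC-S and 7341 in control (1.87-fold), and Gapdh 39457 in TLC-S and 25069 in control (1.57-fold). A log2 ratio within 0.3 of 0 was seen for 7 of these 17 genes, among them Rplp0 (-0.10), Eef1a1 (-0.04), Rpl13a (-0.0064), Hprt1 (0.08), Gusb (0.16) and Tbp (0.27). Of the 10 actins and tubulins, 0 lay within 0.3 of 0. Their highest and lowest ratio were 2.83-fold apart, a narrower range than the 4.04-fold of the 17 other reference genes.

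If 1 gene is set to no change, its log2 ratio is taken from every target, and the balance of higher and lower targets follows by construction. Without such scaling, 1124 (9.95%) of the 11292 targets with a measured ratio were 2-fold higher and 498 (4.41%) lower. Scaled to Actb, 168 were higher and 2151 lower, and higher ones made up 7.24% of the total past 2-fold in place of 69.3%. Scaled to Actg1, 91 were higher and 3301 lower. Scaled to Tubb5, 52 were higher and 4992 lower, and scaled to Tuba4a, 382 and 1005. Gapdh gave 193 higher and 1865 lower, Rplp0 1452 and 427, and B2m 4960 and 180. Each of the 10 actins and tubulins thus turned a majority of higher targets into a majority of lower ones.

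**Figure D5:**
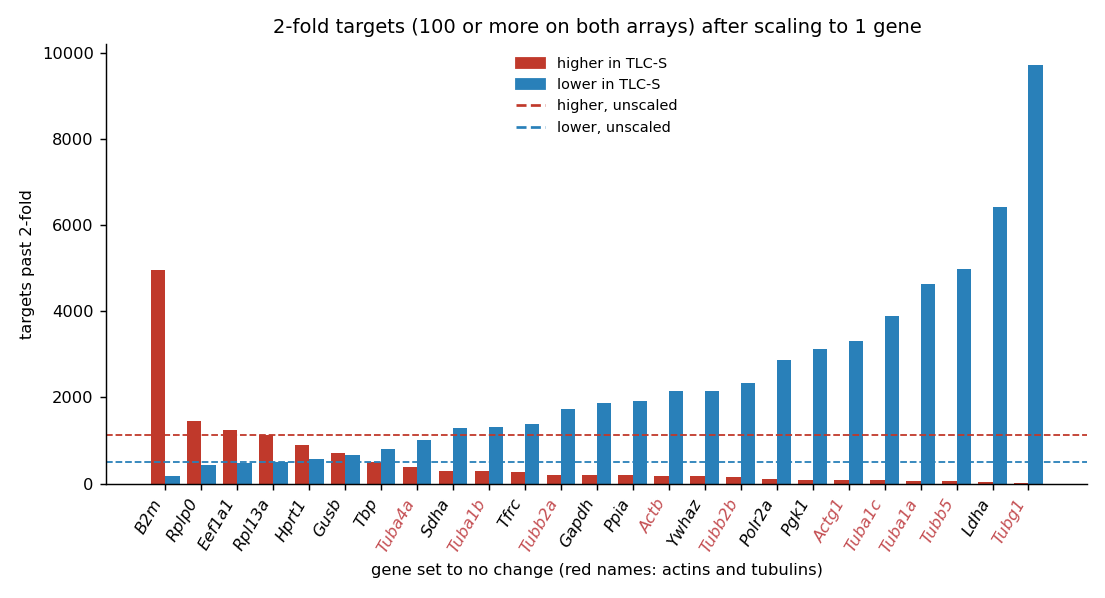
Number of targets with a measured ratio that are at least 2-fold higher (red bars) or lower (blue bars) in TLC-S after the gene named on the axis is set to no change, ordered by that gene's log2 ratio. Dashed lines are the counts without scaling, 1124 higher and 498 lower, and each actin or tubulin (red names) gives more lower than higher targets.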

How the data were processed

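RNA of each group was labelled with Cy3 and hybridised to 1 NimbleGen one-colour array, per the labels' protocols. Values were used as the authors deposited them: a linear RMA intensity for every target. RMA is listed without a version, per the submitters' processing notes. How background was corrected is not stated in those notes, and probe sequences were not used here. The authors' up and down tables hold a fold change with a cut-off of 2, per the file headers. All 1124 and 498 folds lay within 1% of the recomputed ratio. No column of array values was left unmapped.

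Ratios are log2 of TLC-S over control. Targets were named by RefSeq accession (9747), gene ID (4950) or the authors' symbol (1644), with symbols from RefSeq on GRCr8; 10078 stayed unnamed. A gene is represented by its brightest target (mean log2 of both arrays). Genes, lists and the naming rule were chosen with earlier results of these data known. Named genes are the 10 genes, the 2 largest absolute ratios at 100 or more on both arrays in each of 12 lists, the 3 nearest genes to Actb and to Tubb5 (Euclidean distance in log2 intensity, provisional symbols left out) and Gapdh; further genes were chosen after their values were seen, and a few genes that the rule or the scaling to 1 gene covers are not reported here. Loess used a span of 0.3 and 3 robust iterations and was tested on simulated data. Ratios were recomputed from the series values and the authors' table, and with median centring, loess, an offset of 50, thresholds of 1.5-fold and 3-fold, the limit of 100, other targets of a gene and scaling to 1 gene. The number of arrays limits the precision. The tools were matplotlib 3.10.9, statsmodels 0.14.6, scipy 1.17.1, pandas 2.3.3 and numpy 2.4.6 under Python 3.11.15.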

Additional observations from a re-analysis of the deposited data

How the results depend on the processing

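No paired analysis was possible because TLC-S and control are single arrays, and for the same reason no array could be left out. Across 52 alternative values of the 10 genes, the log2 ratios kept their sign. For most of them this was fixed beforehand. The series values and the authors' table hold the same readings, and an offset of 50 cannot turn a sign. Median centring takes only 0.06 from ratios of 0.38 or more. Only loess and the other target of Actg1 could have turned the sign. The log2 ratios of the 10 genes moved by less than 0.42, the SD between targets of one gene at 100 or more. Most of the genes were in the bright set, where that SD was 0.14. By that measure Tuba4a moved after loess, from 0.38 to 0.20. Actg1 went from 0.92 to 0.70 with its dimmer target, a gap that is not read as beyond repeat spread. Both Actg1 targets also enter that SD. The series values and the authors' table repeat the main value to rounding. Over all targets 2084 were 2-fold higher and 1797 lower. Thresholds of 1.5-fold and 3-fold gave 5464 and 483 higher, and 4379 and 535 lower. Median centring gave 1774 higher and 2043 lower, and loess 1571 higher and 1917 lower. The excess of higher targets over all targets thus turned to an excess of lower ones under either scaling. The limit of 100 on both arrays gave 1124 higher and 498 lower from a smaller set; adding 50 to each intensity gave 1093 and 701. After loess, the median of tubulin folding and autoregulation genes was -0.0891, that of SRF and MRTF genes 0.0071 and that of actin nucleation genes 0.0539. It was 0.11 for crosslinking and contractility genes and 0.13 for monomer-binding and filament-turnover genes. The curve takes away the positive average ratio at their signal. The next percents are over targets at 100 or more on both arrays only. The percent of 2-fold targets that were higher, 69.3 without scaling, moved with each actin and tubulin set to no change: 7.24 (Actb), 2.68 (Actg1), 1.19 (Tuba1a), 18.5 (Tuba1b), 1.81 (Tuba1c), 27.5 (Tuba4a), 10.8 (Tubb2a), 6.06 (Tubb2b), 1.03 (Tubb5) and 0.103 (Tubg1). For other reference genes it was 9.38 (Gapdh), 96.5 (B2m), 61.5 (Hprt1), 38.6 (Tbp), 8.91 (Ppia), 7.18 (Ywhaz), 18.8 (Sdha), 52.02 (Gusb), 2.94 (Pgk1), 16.9 (Tfrc), 77.3 (Rplp0), 3.65 (Polr2a), 0.511 (Ldha), 72.7 (Eef1a1) and 69.9 (Rpl13a). Signal close to the random probes limits Tubb2a and Tubb2b, and the single array in each group limits every ratio.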
